A study of Homo sapiens with 14 samples.

Results

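Matrix metalloproteinases (MMPs) and the tissue inhibitors of metalloproteinases (TIMPs) were described in WI-38 cells, a fibroblast strain from human lung. The set held 10 genes, MMP1, MMP2, MMP3, MMP10, MMP14, MMP16, TIMP1, TIMP2, TIMP3 and TIMP4, out of 18377 genes named on the array. Rows were taken by gene symbol, and the genes were chosen with earlier results of these data known, so their ranges are a description. MMP16 and TIMP3 were each read by 2 probe sets and the other 8 genes by 1, which gave 12 rows of the value table. The row with the lower mean of each such gene is called its second row. RNA was measured on 14 Affymetrix Gene 1.0 ST arrays, in 7 groups of 2 arrays labelled as biological duplicates. One group was primary cells at passage 19, 5 groups were hTERT-immortalized cells labelled A at passages 39, 50, 58, 67 and 95, and 1 group was hTERT-immortalized cells labelled B at passage 96. The hTERT groups are named by letter and passage (A39 to A95, and B96). hTERT is the catalytic subunit of telomerase, and the sources used here do not say what the letters A and B stand for. All groups were grown in the same serum-supplemented medium and replated every week, and the design follows gene expression along this time course. Whether the 2 arrays of a label came from separate cultures is not stated beyond the word duplicate. The p-values therefore rest on the spread between these arrays.

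MMPs are zinc-dependent endopeptidases, most of them secreted as inactive proenzymes, that together cut the main proteins of the extracellular matrix and many cell-surface and soluble proteins. TIMPs bind the active site of MMPs and block them. The level of RNA says nothing by itself about how much of a proenzyme is activated. In fibroblasts MMP1, MMP3 and MMP10 are classically induced by cytokines and growth factors through AP-1, the FOS and JUN transcription factors. By contrast MMP2, MMP14 and TIMP2 are expressed more constantly and act together. Both MMP14 and TIMP2 take part in the activation of proMMP2 at the cell surface.

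MMP1, MMP3 and MMP10 lie in a run of 9 neighbouring MMP genes on chromosome 11 (MMP7, MMP20, MMP27, MMP8, MMP10, MMP1, MMP3, MMP12 and MMP13), by NCBI RefSeq's gene table for GRCh38.p14. In that table TIMP1 on chromosome X lies inside SYN1, TIMP3 on chromosome 22 inside SYN3 and TIMP4 on chromosome 3 inside SYN2, the synapsin genes. MMP2, MMP14 and TIMP2 lie on chromosomes 16, 14 and 17. RefSeq promoter sequence was matched for 5 of the 10 genes (MMP10, MMP14, TIMP1, TIMP3 and TIMP4), and 3 of these are shown because they span the range from a TATA-containing, CpG-poor start to a CpG-rich one. Each is the 250 bases before the annotated start, 5′ to 3′ on the gene's strand, in GRCh38.p14. Capitals mark matches to TGANTCA (the AP-1 motif, with any base allowed at its middle N), TATAAA (the TATA box) and GGGCGG (the GC box bound by Sp1). Each was searched on both strands together with AGGAAG (an ETS motif). The MMP10 window is chr11:102780629-102780878 (minus strand), the MMP14 window chr14:22836335-22836584 (plus strand) and the TIMP3 window chr22:32801455-32801704 (plus strand).
MMP10: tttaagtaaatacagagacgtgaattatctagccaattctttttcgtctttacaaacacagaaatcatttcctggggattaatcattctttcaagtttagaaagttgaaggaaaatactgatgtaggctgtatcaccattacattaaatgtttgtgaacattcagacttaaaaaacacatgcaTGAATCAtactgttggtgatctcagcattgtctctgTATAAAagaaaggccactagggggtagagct
MMP14: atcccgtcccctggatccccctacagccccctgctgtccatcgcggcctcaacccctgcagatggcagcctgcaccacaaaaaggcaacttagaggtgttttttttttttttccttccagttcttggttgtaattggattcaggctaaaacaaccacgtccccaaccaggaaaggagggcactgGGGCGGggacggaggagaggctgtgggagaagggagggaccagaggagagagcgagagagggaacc
TIMP3: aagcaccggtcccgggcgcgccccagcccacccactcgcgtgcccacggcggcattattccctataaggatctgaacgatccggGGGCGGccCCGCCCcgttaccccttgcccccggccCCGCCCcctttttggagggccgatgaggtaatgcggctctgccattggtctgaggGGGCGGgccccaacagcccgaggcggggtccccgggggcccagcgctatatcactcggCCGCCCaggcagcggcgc

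The MMP10 window held 1 AP-1 match, with A as its middle base, whose first base is 67 bases before the start. It also held 1 TATA match, whose first base is 31 bases before the start. It held 2 CpG dinucleotides and 34.4% G or C. The MMP14 window held 7 CpG dinucleotides and 1 GC box match. The TIMP3 window held 26 CpG dinucleotides, 72.4% G or C and 5 GC box matches. Over all 35116 promoters of the same length the median was 11 CpG dinucleotides and 58.0% G or C. An AP-1 match was found in 6.57% of them, a TATA match in 10.7%, a GC box match in 42.6% and an ETS match in 28.7%. The TIMP1 window held 2 GC box matches and 1 ETS match, and that of TIMP4 held 1 of each. A match is a run of letters and not a measured binding site.

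TERT, which checks the hTERT label, read 7.07 on primary replicate 1 and 11.70 on the array labelled primary replicate 2, beside 10.67 to 12.18 on the 12 arrays labelled hTERT. All values are log2 expression values as deposited, so a difference of 1 is a doubling of signal. The array labelled primary replicate 2 thus read like the hTERT arrays, and the comparison with primary is also given without it. Over all rows outside the described set, 0 of 14 arrays correlated best with the other array of their label. Instead 5 pairs of arrays were mutual closest partners across labels (r = 0.986 to 0.993, against 0.944 to 0.983 within labels). In each such pair the second array of one label was matched with the first array of the next label (primary to A39, A39 to A50, A50 to A58, A58 to A67 and A95 to B96). An offset of the labels by 1 array was not tested. Groups were kept as labelled, and every group mean, difference and slope below holds for the labels as deposited. Of 12 fibroblast markers, 11 stood above the upper quartile of all rows on every array, the exception being S100A4. The same held for 2 of 10 epithelial markers (KRT8 and KRT18), 0 of 7 endothelial markers, 1 of 8 markers of blood cells (CD68) and 1 of 6 markers of smooth muscle and pericytes (ACTA2). Fewer cells of a type and less RNA per cell cannot be told apart in bulk RNA.

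MMP3 and TIMP3 varied most among the 10 genes, and both differed between arrays of 1 label. MMP3 spanned 3.10 log2, an 8.57-fold range that 1.70% of all rows reached. TIMP3 spanned 2.43 log2, a 5.39-fold range reached by 3.60% of rows. At the other end TIMP2 spanned 0.67 log2, a range that 71.3% of rows reached. The median range of the 10 genes was 1.20 log2 and that of all genes 0.79, and 7 of the 10 genes spanned at least 1 log2 against 30.9% of all genes.

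**Figure D1:**
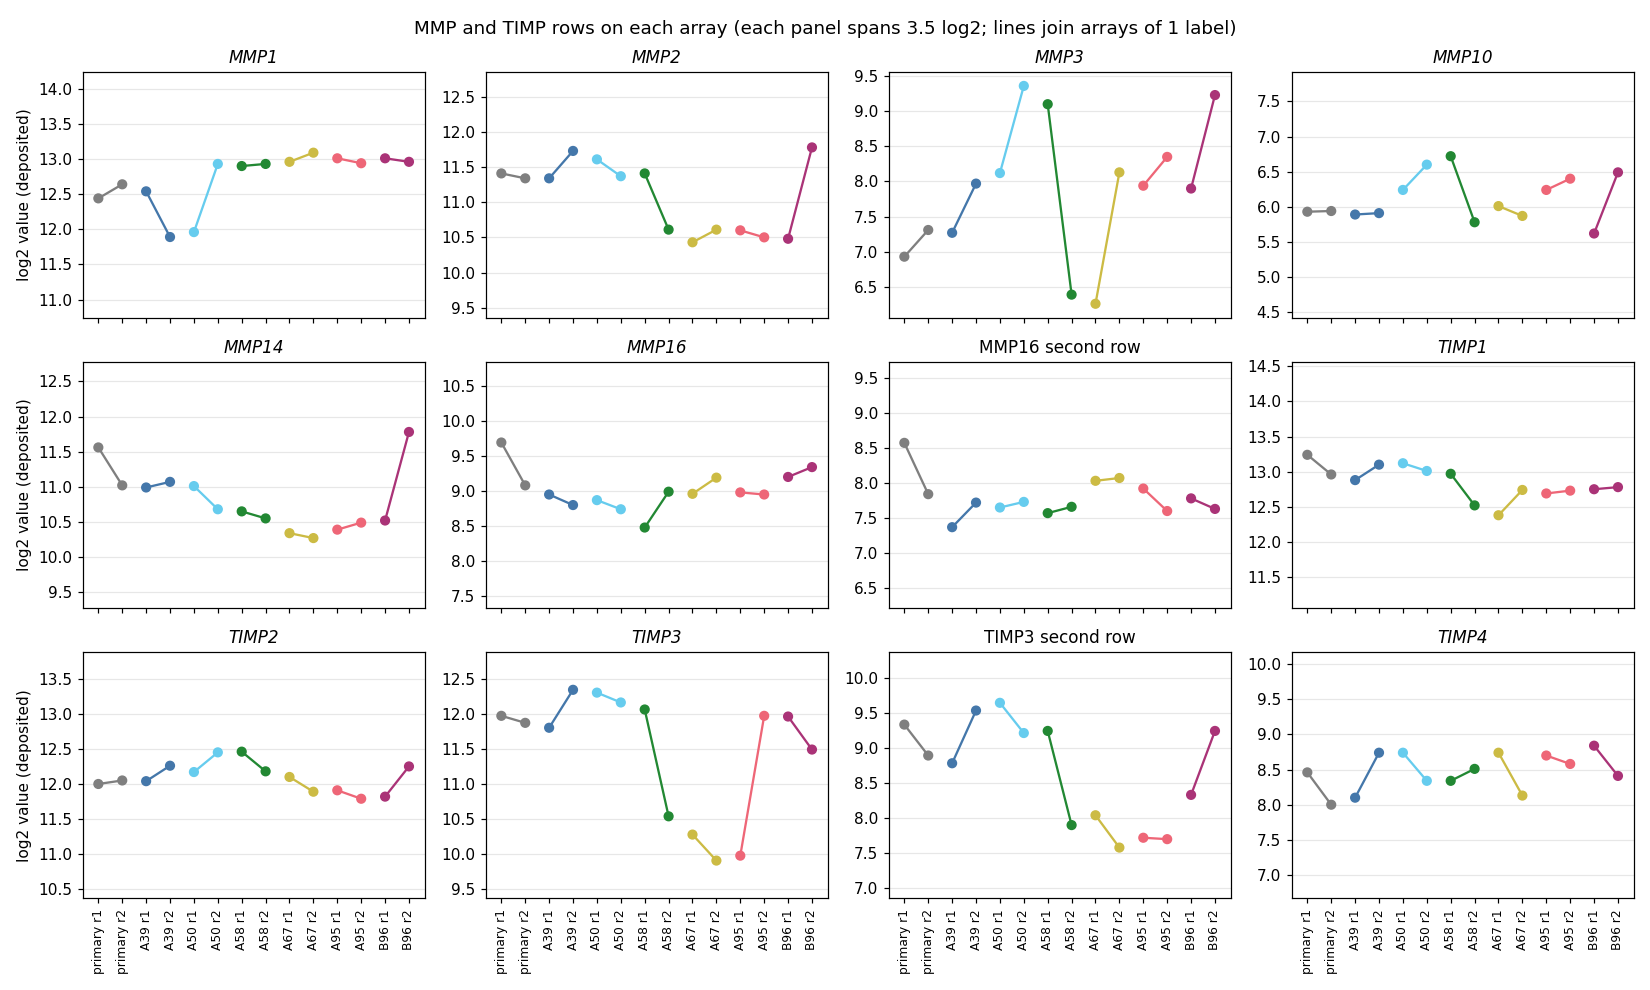
Level of each MMP and TIMP row on the 14 arrays in label order (x axis) as deposited log2 values (y axis; each panel spans the same width of 3.5 log2), with lines joining the 2 arrays of a label. MMP3 is at 9.10 on A58 replicate 1 and 6.39 on A58 replicate 2, and TIMP3 is at 12.06 and 10.54 on the same arrays.

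MMP1, interstitial collagenase, cuts fibrillar collagen of types I, II and III and is a main collagenase of fibroblasts. MMP1 (probe set 7951271) read 12.44 and 12.64 on the primary arrays, 12.54 and 11.89 at A39, 11.96 and 12.93 at A50, 12.90 and 12.93 at A58, 12.96 and 13.09 at A67, 13.01 and 12.94 at A95, and 13.01 and 12.96 at B96. It was lowest on A39 replicate 2 and A50 replicate 1 and lay between 12.90 and 13.09 on the 9 arrays from A50 replicate 2 onward, so that the A50 group held both a low and a high array. The row's mean was above that of 99.5% of rows, near the upper end of the scale.

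MMP3, stromelysin 1, cuts proteoglycans, fibronectin and laminin and can activate other proMMPs, proMMP1 among them. MMP3 (probe set 7951284) read 6.93 and 7.31 on the primary arrays, 7.27 and 7.97 at A39, 8.12 and 9.36 at A50, 9.10 and 6.39 at A58, 6.26 and 8.13 at A67, 7.94 and 8.35 at A95, and 7.90 and 9.23 at B96. The 3 highest arrays were A50 replicate 2, A58 replicate 1 and B96 replicate 2, and the 2 lowest were A58 replicate 2 and A67 replicate 1. The A58 arrays therefore held the third highest and the second lowest of the 14 values. The group SD was 1.92 at A58 (mean 7.74, n = 2) and 0.27 in the primary group (mean 7.12, n = 2).

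MMP10, stromelysin 2, has substrates close to those of MMP3. MMP10 (probe set 7951259) read 5.93 and 5.94 on the primary arrays, 5.89 and 5.91 at A39, 6.24 and 6.60 at A50, 6.72 and 5.78 at A58, 6.01 and 5.87 at A67, 6.24 and 6.40 at A95, and 5.62 and 6.49 at B96. Its 3 highest arrays were the 3 that were highest for MMP3, at 6.49 to 6.72. The row was dim, with 22.8% of rows lower in mean, and it was the 1 row of the 12 whose mean lay in the lowest 30% of the table.

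MMP2, gelatinase A or 72 kDa type IV collagenase, cuts denatured collagen and basement membrane collagen. MMP2 (probe set 7995681) read 11.41 and 11.34 on the primary arrays, 11.34 and 11.73 at A39, 11.61 and 11.37 at A50, 11.41 and 10.61 at A58, 10.43 and 10.61 at A67, 10.60 and 10.50 at A95, and 10.48 and 11.78 at B96. The values fell into a higher and a lower range with none between. The lower range, 10.43 to 10.61, held A58 replicate 2, both A67 arrays, both A95 arrays and B96 replicate 1, and the other 8 arrays read 11.34 to 11.78. The A58 and the B96 groups each had 1 array in either range.

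MMP14, membrane type 1 MMP, is anchored in the cell membrane, cuts collagen around the cell and activates proMMP2. MMP14 (probe set 7973336) read 11.56 and 11.02 on the primary arrays, 10.99 and 11.07 at A39, 11.01 and 10.68 at A50, 10.65 and 10.55 at A58, 10.34 and 10.27 at A67, 10.39 and 10.49 at A95, and 10.52 and 11.78 at B96. B96 replicate 2 and primary replicate 1 were highest, and the 2 arrays of A67 were the lowest of all. B96 replicate 2 was also the highest array for MMP2.

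MMP16, membrane type 3 MMP, is another membrane-anchored enzyme that can activate proMMP2. MMP16 (probe set 8151686) read 9.69 and 9.08 on the primary arrays, 8.95 and 8.80 at A39, 8.87 and 8.74 at A50, 8.48 and 8.99 at A58, 8.96 and 9.19 at A67, 8.98 and 8.95 at A95, and 9.20 and 9.34 at B96. The second MMP16 row (probe set 8151684) read 8.57 and 7.84 on the primary arrays and 7.37 to 8.07 on the other 12 arrays. Primary replicate 1, the 1 array with a low TERT value, was the highest array for both MMP16 rows. The 2 rows correlated with each other at r = 0.66 over the 14 arrays.

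TIMP1 inhibits most secreted MMPs and is a weak inhibitor of MMP14. TIMP1 (probe set 8167185) read 13.24 and 12.96 on the primary arrays, 12.88 and 13.10 at A39, 13.12 and 13.01 at A50, 12.97 and 12.52 at A58, 12.38 and 12.74 at A67, 12.69 and 12.73 at A95, and 12.75 and 12.78 at B96. The 7 arrays from primary replicate 1 to A58 replicate 1 read 12.88 to 13.24, and the 7 from A58 replicate 2 onward read 12.38 to 12.78.

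TIMP2 inhibits MMPs and also takes part in the activation of proMMP2 on MMP14. TIMP2 (probe set 8018966) read 12.00 and 12.05 on the primary arrays, 12.04 and 12.26 at A39, 12.17 and 12.45 at A50, 12.46 and 12.18 at A58, 12.10 and 11.89 at A67, 11.91 and 11.79 at A95, and 11.82 and 12.25 at B96. A50 replicate 2 and A58 replicate 1 were highest, and A95 replicate 2 was lowest.

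TIMP3 is the inhibitor that is bound to the extracellular matrix, and it also inhibits ADAM17 and several ADAMTS enzymes. TIMP3 (probe set 8072626) read 11.97 and 11.87 on the primary arrays, 11.80 and 12.34 at A39, 12.30 and 12.16 at A50, 12.06 and 10.54 at A58, 10.28 and 9.91 at A67, 9.98 and 11.97 at A95, and 11.96 and 11.49 at B96. On A58 replicate 2, both A67 arrays and A95 replicate 1 the row read 9.91 to 10.54, and no other array was below 11.49. The A58 and the A95 groups each held 1 low and 1 high array.

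The second TIMP3 row (probe set 8075635) read 9.33 and 8.89 on the primary arrays, 8.78 and 9.53 at A39, 9.64 and 9.21 at A50, 9.24 and 7.90 at A58, 8.04 and 7.58 at A67, 7.72 and 7.70 at A95, and 8.33 and 9.24 at B96. It was low on the same 4 arrays as the first row (7.58 to 8.04). The 2 rows disagreed on A95 replicate 2, where the first row read 11.97, above its median of 11.9, and the second 7.70, below its median of 8.83. They correlated at r = 0.77 (rho = 0.75) over the 14 arrays.

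TIMP4, the inhibitor best known from heart, read 8.46 and 8.0 on the primary arrays (probe set 8085360), 8.10 and 8.74 at A39, 8.74 and 8.34 at A50, 8.34 and 8.51 at A58, 8.74 and 8.13 at A67, 8.70 and 8.58 at A95, and 8.84 and 8.41 at B96. High and low arrays alternated within labels, and all values stayed within 0.84 log2. The synapsin genes that hold a TIMP had ranges of 0.62 log2 (SYN3), 0.47 (SYN1) and 0.46 (SYN2). In the 3 group comparisons and the trend 0 of these genes were called (limma, Benjamini-Hochberg). Over all 18377 genes the group comparisons called 0 and the trend 54.

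Arrays of 1 label differed more from each other in most of these genes than the closest partner arrays did. For MMP3 the difference between the 2 arrays of a label was 0.38 to 2.71 log2 (median 1.24, 7 pairs), against 0.04 to 0.45 (median 0.15) in the 5 closest partner pairs. For TIMP3 it was 0.10 to 1.99 (median 0.47) within labels and 0.01 to 0.26 (median 0.07) in partner pairs. The median was larger within labels for 10 of the 12 rows (83.3%), and for 78.2% of all 28869 rows, so the MMP and TIMP rows did as the table as a whole. The 2 exceptions were MMP10 (0.16 within labels, 0.23 in partner pairs) and the second MMP16 row (0.15 and 0.18). Partner pairs were found by their likeness over all other rows, so these values describe the arrays and are not a test. The group comparisons below take their error from the spread within labels, so these differences enter their p-values.

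**Figure D2:**
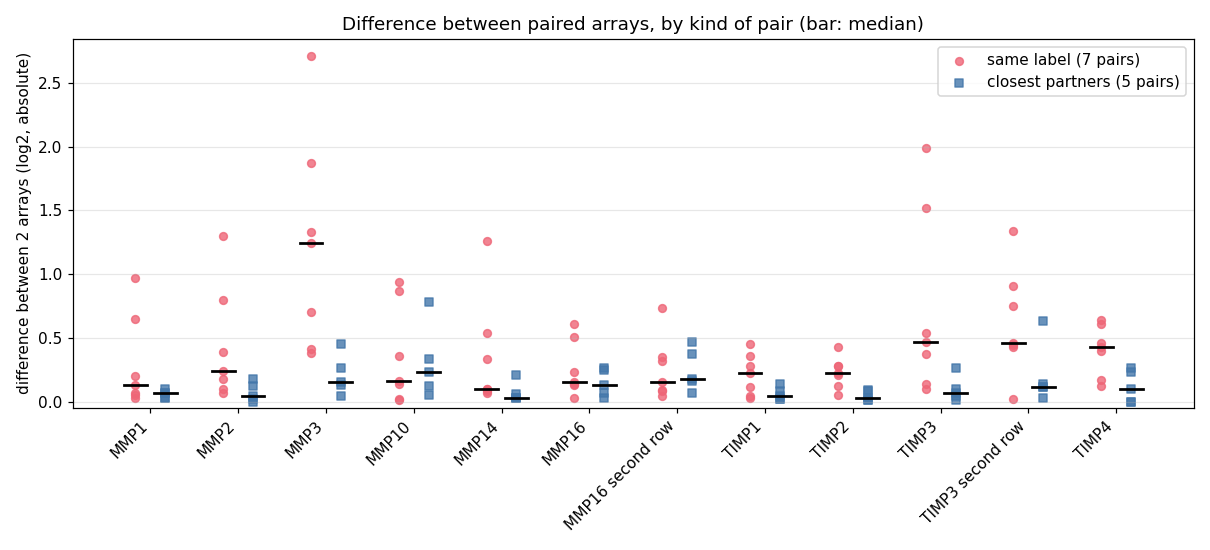
Absolute log2 difference between 2 arrays (y axis) for each MMP and TIMP row (x axis), for the 7 pairs that share a label and the 5 pairs of closest partners, with the median of each as a bar. The MMP3 pairs of 1 label reach 2.71, while no partner pair of MMP3 differs by over 0.45.

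The first question the design puts is how immortalized cells at the earliest passage compared with primary cells. In A39 versus primary, MMP16 had a difference of −0.51 ± 0.23 (log2, SE; limma with Benjamini-Hochberg adjustment over all rows, adjusted p = 1.00) and its second row one of −0.66 ± 0.24 (adjusted p = 1.00). MMP3 had the widest positive difference, 0.50 ± 0.86. None of the 12 rows passed, and 0% of the 28869 rows did. At an unadjusted p under 0.05, 0 rows of the set were higher and 1 was lower, the second MMP16 row (0.018 by limma), against 1.2% of all rows in either direction (347 rows). Without the array labelled primary replicate 2, the differences were −0.81 for MMP16, −1.02 for its second row (limma adjusted p = 0.494) and −0.53 for MMP14. MMP1 had −0.22 (−0.33 with both arrays), MMP2 0.12 (0.16), MMP3 0.69 (0.50) and MMP10 −0.03 (−0.04). Among the inhibitors, TIMP1 had −0.25 (−0.11), TIMP2 0.15 (0.12), TIMP3 0.10 (0.15), its second row −0.17 (0.04) and TIMP4 −0.04 (0.19). The sign thus turned for the second TIMP3 row and for TIMP4. The values without it rest on 1 primary array, which was assumed to vary like the other groups.

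The second comparison followed the immortalized cells labelled A from passage 39 to passage 95. Relative to A39, A95 had a difference of 0.76 ± 0.29 for MMP1, −0.98 ± 0.38 for MMP2 and −1.44 ± 0.45 for the second TIMP3 row (log2, SE). The limma adjusted p was 0.528 for each of these 3. MMP14 had a difference of −0.59 ± 0.34, TIMP2 of −0.30 ± 0.20 and TIMP1 of −0.28 ± 0.20, with limma adjusted p of 0.570, 0.598 and 0.619. None of the 12 rows passed, and 0% of all rows did. At an unadjusted p under 0.05, 1 row of the set was higher (MMP1, 0.026) and 2 were lower (MMP2, 0.025, and the second TIMP3 row, 0.0084), against 9.21% of all rows in either direction by the same limma fit (2660 rows).

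Both A95 arrays lay above both A39 arrays for 2 of the 12 rows (16.7%), MMP1 and MMP10, which compares with 22.7% of all rows. Both lay below for 5 of the 12 rows (41.7%), MMP2, MMP14, TIMP1, TIMP2 and the second TIMP3 row, which compares with 15.4% of all rows. The genes were chosen with earlier results known, and several of these rows ran together (r = 0.93 for MMP2 and the second TIMP3 row). The shares are therefore a description and not a test of the set. The median difference was −0.09 over the 12 rows and 0.07 over all rows. The first TIMP3 row had a difference of −1.10 ± 0.59 (limma adjusted p = 0.562) that 1 array decided. It was −0.10 without A95 replicate 1 and −2.09 without A95 replicate 2. The MMP1 difference was 0.44 without A39 replicate 2 and 1.08 without A39 replicate 1. In the whole table, leaving out A95 replicate 1 gave 4 rows past the threshold, none of them an MMP or TIMP row.

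The third comparison set the cells labelled B at passage 96 against those labelled A at passage 95. B96 had a difference of 1.07 ± 0.45 for the second TIMP3 row (limma adjusted p = 1.00, unadjusted 0.036), 0.71 ± 0.34 for MMP14 and 0.58 ± 0.38 for MMP2. The rest of the set lay between −0.27 and 0.75. None of the 12 rows passed, and 0% of all rows did. At an unadjusted p under 0.05, 1 row of the set was higher and 0 were lower, against 2.28% of all rows (659 rows). The MMP14 difference was 0.08 without B96 replicate 2 and 1.34 without B96 replicate 1, and that of MMP2 was −0.07 and 1.23. B96 replicate 2 was the highest array of the 14 for both genes, and B96 replicate 1 was the closest partner of A95 replicate 2. Leaving out B96 replicate 2 gave 3 rows past the threshold in the whole table, none of them an MMP or TIMP row.

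Steps between neighbouring passages and the overall test gave no calls either. In A50 versus A39, A58 versus A50, A67 versus A58 and A95 versus A67, 0 of the 12 rows passed and 0% of all rows did (limma, Benjamini-Hochberg), with 230, 284, 387 and 904 of the 28869 rows at an unadjusted p under 0.05 and 0 of the 12 rows among them. The test of any difference among the 7 groups (limma F test) called 0% of rows. The smallest adjusted p of the set was 0.943 there. Of the 12 rows, the 2 of TIMP3 had an unadjusted limma F test p under 0.05 (0.048 and 0.017), as did 1333 of all rows.

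Along the 10 arrays labelled A, a slope was fitted against passage number. MMP2 had a slope of −0.20 ± 0.05 log2 per 10 passages (SE; limma adjusted p = 0.108), MMP14 of −0.11 ± 0.03 (adjusted p = 0.152), TIMP2 of −0.07 ± 0.03 (0.245) and the second TIMP3 row of −0.31 ± 0.08 (0.113). MMP1 had a slope of 0.13 ± 0.06 (0.234) and the first TIMP3 row of −0.25 ± 0.13 (0.323). MMP3 had a slope of 0.0085 ± 0.15, and thus no direction beyond its spread. None of the 12 rows passed, while 0.281% of all rows did (81 rows, 12 with a positive and 69 with a negative slope). At an unadjusted p under 0.05, 1 row of the set had a positive slope, against 9.89% of all rows, and 4 had a negative one, against 8.83%. These counts are a description as well, for genes chosen with earlier results known.

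**Figure D3:**
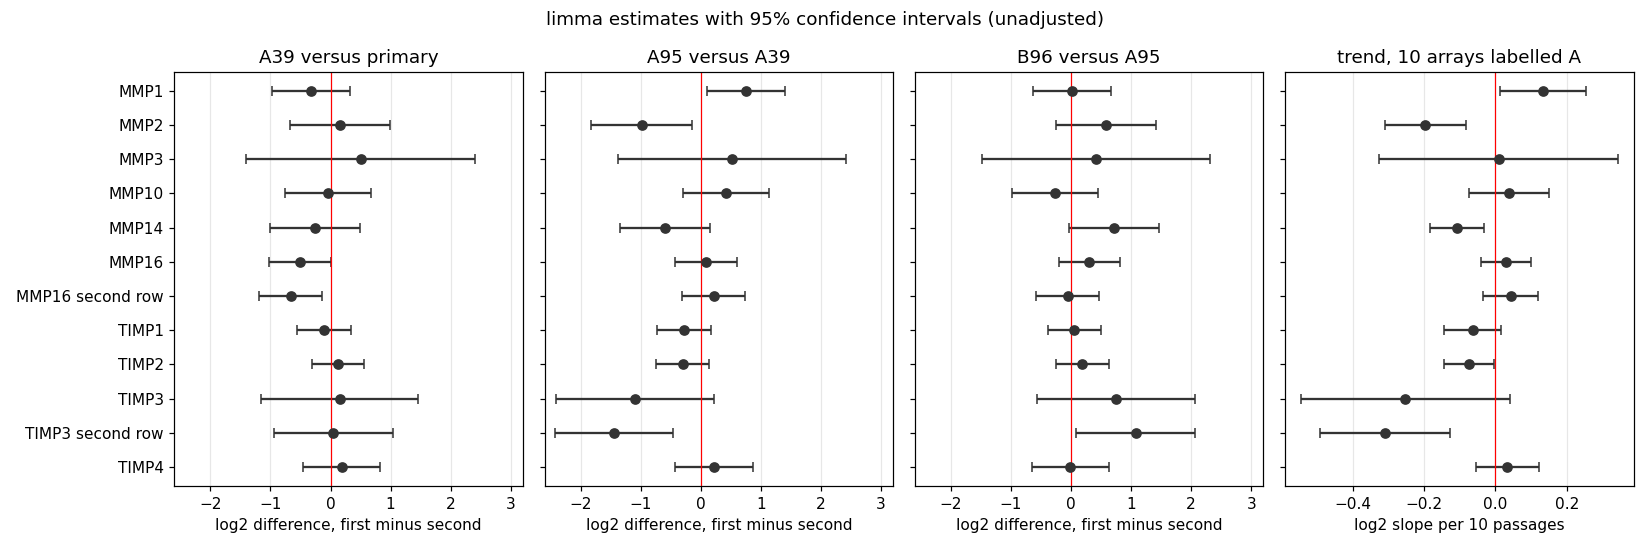
Log2 differences between groups (first 3 panels) and slopes per 10 passages over the 10 arrays labelled A (right panel) for each MMP and TIMP row, as limma estimates with unadjusted 95% confidence intervals and a line at 0. The intervals of MMP3 and TIMP3 are the widest, and MMP2 and the second TIMP3 row lie below 0 in A95 versus A39 and in the trend.

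The slopes were open to the fit and to single arrays. With array quality weights, MMP2 (−0.19, limma adjusted p = 0.044), TIMP3 (−0.41, 0.033) and its second row (−0.32, 0.034) passed the threshold. With the rank of passage in place of its number, MMP2 (0.035), MMP14 (0.047) and the second TIMP3 row (0.049) passed. The TIMP3 slope was −0.17 without A95 replicate 1 and −0.48 without A95 replicate 2. The count of 81 rows over the whole table became 571 without A95 replicate 1, 72 without A67 replicate 2, and 0 or 1 without any 1 of the other 8 arrays. With closest partner arrays treated as a random block, an alternative added after the data were seen, the smallest adjusted p of the set was 0.191 (MMP2) and 0 rows of the table passed.

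The balance between an MMP and a TIMP was followed as the log2 difference of the 2 rows on each array, set to 0 at its median over the 14 arrays, since the levels of different probe sets cannot be compared. MMP1 minus TIMP1 ran from −1.27 on A39 replicate 2 to 0.53 on A67 replicate 1. The 7 arrays up to A58 replicate 1 lay below its median and the 7 later ones above it. The centring fixes 7 arrays on each side, so only which arrays these are is read from the data. MMP1 minus the first TIMP3 row spanned 3.63 log2, from −1.36 on A39 replicate 2 to 2.27 on A67 replicate 2. It was 1.49 to 2.27 on A58 replicate 2, both A67 arrays and A95 replicate 1, and at most 0.56 elsewhere. The second TIMP3 row was not used for the balance, and which arrays stand out depends on the row. On A95 replicate 2 the second row read 7.70, as low as on the arrays just named, and the first row 11.97. MMP2 minus TIMP2 stayed between −0.61 and 0.59, and MMP14 minus TIMP2 between −0.51 and 0.86. These differences reuse the values above and were not tested.

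**Figure D4:**
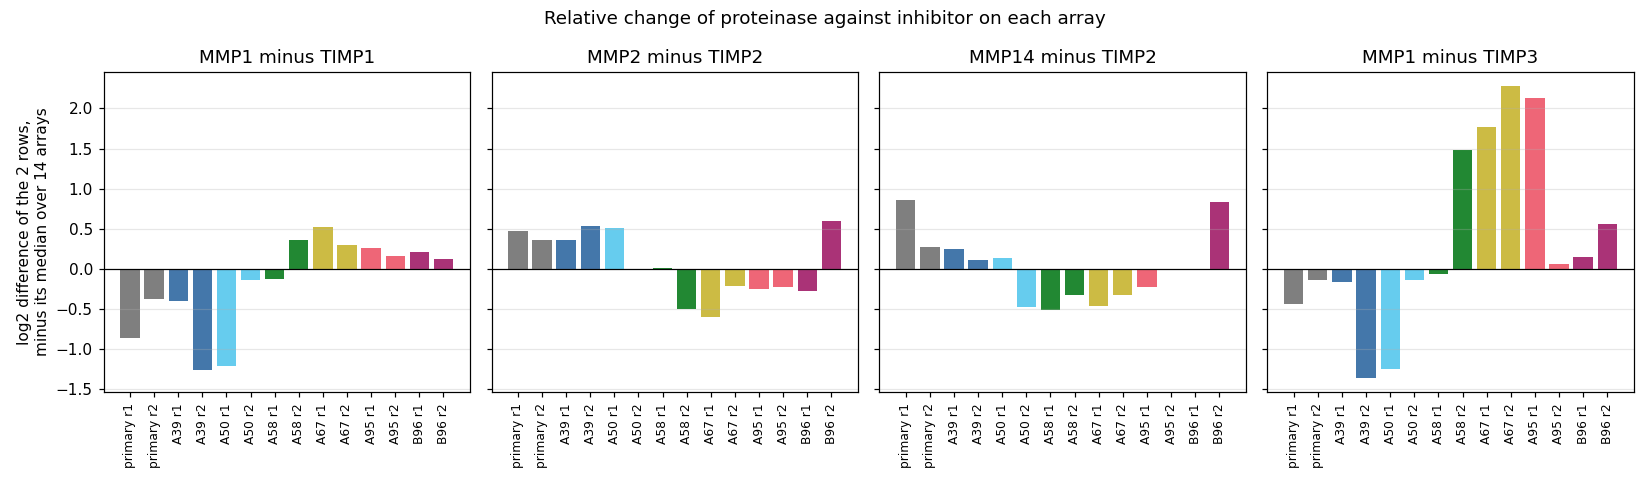
Log2 difference between an MMP row and a TIMP row on each of the 14 arrays (bars, y axis), each set to 0 at its own median over the arrays. MMP1 minus TIMP3 (its first row) is above 1.4 on 4 arrays and MMP2 minus TIMP2 never leaves the band from −0.61 to 0.59.

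Across the 14 arrays, which are not independent because many share a label or a close partner, MMP2 ran most closely with the second TIMP3 row (r = 0.93, rho = 0.83). With the first TIMP3 row MMP2 had only r = 0.65 (rho = 0.55). MMP2 and MMP14 had r = 0.81 (rho = 0.84), MMP2 and TIMP1 r = 0.77, and TIMP1 and the second TIMP3 row r = 0.80. TIMP1 and the first TIMP3 row had r = 0.74. MMP3 and MMP10, both in the chromosome 11 run, had r = 0.74 (rho = 0.65). MMP1, which lies between these 2 in the run, had r = 0.11 with MMP3 and 0.15 with MMP10. MMP1 ran against the second TIMP3 row (r = −0.69), TIMP1 (−0.68), MMP2 (−0.65) and the first TIMP3 row (−0.57). TIMP4 had r between −0.26 and 0.08 with every other row of the set.

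**Figure D5:**
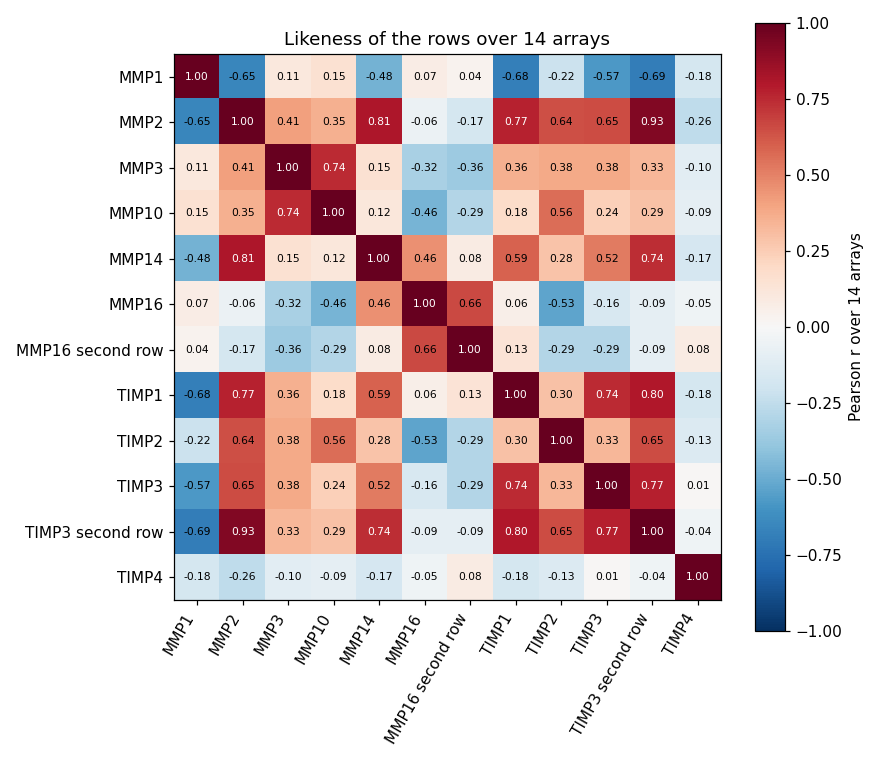
Pearson r over the 14 arrays between each pair of MMP and TIMP rows (colour and number in each cell). MMP2, MMP14, TIMP1 and both TIMP3 rows form a block of r between 0.52 and 0.93, and MMP1 is negative with each of them.

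For the 2 genes that spanned at least 2 log2, the 3 genes of 18376 with the highest r were named. For TIMP3 they were PRICKLE1 (r = 0.979, range 2.36 log2), ABCA1 (0.976, range 1.95) and MAN1A1 (0.975, range 4.53). On A58 replicate 2, both A67 arrays and A95 replicate 1, where TIMP3 was low, MAN1A1 read 6.74, 6.59, 6.14 and 5.92, and no other array was below 9.15. For MMP3 they were CYP2G1P (r = 0.923), WWC2-AS2 (0.898) and ENTPD4 (0.885), whose ranges were 0.91, 0.61 and 0.42 log2, well below the 3.10 of MMP3.

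Other genes of the pathway passed no test in the 3 group comparisons or in the trend (limma, Benjamini-Hochberg). Of all 18377 genes, 0 were called in each of the 3 group comparisons and 54 in the trend. A short list with no calls was therefore the usual outcome, here and for the lists that follow. Of 17 further MMP genes 16 were measured, with a median range of 0.66 log2 (0.79 for all genes), and 0 were called. The widest were MMP26 (range 1.60) and MMP17 (1.24), the latter a membrane-anchored MMP. Of 8 genes listed as other inhibitors (RECK, TFPI2, A2M, SPOCK1, SPOCK2, SPOCK3, PCOLCE and CST3) 0 were called and 6 spanned at least 1 log2. The list is wider than inhibitors of MMPs, since it holds PCOLCE and CST3, and CST3 (range 1.07) is among the 6. A2M, the broad proteinase inhibitor alpha-2-macroglobulin, spanned 4.19 log2, from 9.54 and 9.53 on A39 replicate 2 and A50 replicate 1 to 5.35 on A67 replicate 1. TFPI2, a Kunitz-type inhibitor bound to the matrix, spanned 2.88 log2 and was highest on A50 replicate 2 and A58 replicate 1, at 12.50 and 12.35.

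Of 12 genes of the plasminogen system and proenzyme activators 10 were measured, with a median range of 0.97 log2 and 0 called. PLAT, tissue plasminogen activator, read 9.90 on primary replicate 1 and 11.56 to 12.28 on the other 13 arrays, among them the array labelled primary replicate 2 at 12.12. SERPINE2, an inhibitor of thrombin and plasminogen activators, was highest on A50 replicate 2 and A58 replicate 1 (12.69 and 12.73). Of 28 ADAM and ADAMTS genes 26 were measured and 0 were called. ADAMTS5, an aggrecanase that TIMP3 inhibits, spanned 3.31 log2, reading 8.96 to 9.63 on the 6 arrays from primary replicate 2 to A58 replicate 1 and 6.32 to 7.86 on the rest. ADAMTS19 spanned 2.75 log2 and was highest on B96 replicate 2 (8.34).

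Of 19 AP-1 and other regulators of MMP transcription 0 were called. FOS spanned 3.77 log2 and FOSB 3.38, both highest on A58 replicate 2 (11.05 and 10.10) and lowest on B96 replicate 2 (7.28 and 6.72). MMP3 was near its minimum on the first of these arrays and near its maximum on the second. These are only the extreme arrays of FOS and FOSB, and other arrays differed. On primary replicate 1 and A39 replicate 1 FOS read 8.59 and 8.61 and MMP3 6.93 and 7.27. On A50 replicate 2, where MMP3 was highest (9.36), FOS read 9.99. How MMP3 ran with FOS or FOSB over all arrays was not tested. Of 15 substrates of MMPs in the matrix 0 were called, and in A95 versus A39 the difference was negative for 13 of 15, with a median of −0.51 log2, against 7920 of 18377 genes and a median of 0.05 over all genes. In B96 versus A95, which shares the A95 arrays, it was positive for 13 of 15, with a median of 0.27 log2, against 8982 of 18377 genes. The A95 arrays themselves differed in some of these genes. BGN read 8.34 on A95 replicate 1 and 9.92 on A95 replicate 2, beside 9.96 and 10.64 at B96. COL1A2 read 12.54 and 13.15, beside 13.07 and 13.10. For others A95 replicate 1 was the higher, ELN among them at 10.77 and 10.02. Counts without 1 array were not made for this list. VCAN, the proteoglycan versican, spanned 3.36 log2 and was highest on primary replicate 1 (11.32). ELN, elastin, spanned 2.85 log2, from 8.79 on A39 replicate 2 and A50 replicate 1 to 11.64 on A50 replicate 2.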

How the data were processed

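Total RNA of 14 samples was labelled and hybridised to Affymetrix Gene 1.0 ST arrays, per the labels' protocols. The table deposited by the authors holds 28869 rows of log2 values; the log base is read from the values, which run from 0 to at most 14.27, with array medians of 7.26 to 7.48. How the authors corrected background, summarised probes and normalized arrays is not stated in what was used here, and such steps can compress low and very high values. Rows were named from the platform annotation: 19310 rows had 1 symbol, 1752 several and 7807 none. Where a gene had several rows, the row with the highest mean stood for it in the gene lists. The members and lists were chosen with earlier results of these data known.

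Values were used as deposited. With limma 3.58.1 in R 4.3.3, group means were fitted over the 14 arrays together (7 residual degrees of freedom) and, for the trend, a line to the 10 arrays labelled A. The tests were two-sided, with Benjamini-Hochberg adjustment over all rows at a threshold of 0.05. They were also run on simulated data with independent arrays. That simulation lacks the likeness of arrays across labels seen here, so it does not show how the tests behave with it. All 10 genes were described on every array. For genes spanning at least 2 log2, the 3 genes with the highest Pearson r were named, and for each list the 2 genes with the widest range. The 2 arrays per group limit the precision. As alternatives, single arrays were left out in turn, the replicate number was a block, and other settings were quantile normalization, median centring, leaving out dim rows, 1 row per gene, another variance prior, array weights, only the compared groups, and other scales or blocks for passage.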

Additional observations from a re-analysis of the deposited data

How the results depend on the processing

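Of 672 values that the 48 differences and slopes of the MMP and TIMP rows took under the alternatives, 637 kept their direction and their side of the threshold, 29 changed sign and 6 slopes passed the threshold, as given above. Much of this count was fixed in advance and it does not measure robustness. The replicate block, another prior, array weights, leaving out dim rows, 1 row per gene and only the compared groups left the estimated group differences unchanged. Each group comparison called 0 rows as fitted, so the side of the threshold had little room to change. Of the 29 sign changes, 23 came from leaving out 1 array. In A39 versus primary the range without 1 array was −0.53 to 0.01 for MMP14, −0.035 to 0.355 for MMP2, −0.25 to 0.03 for TIMP1, −0.12 to 0.42 for TIMP3, −0.33 to 0.42 for its second row and −0.13 to 0.51 for TIMP4. In A95 versus A39 it was −0.10 to 0.54 for TIMP4. In B96 versus A95 it was −0.025 to 0.045 for MMP1, −0.70 to 0.17 for MMP10, −0.215 to 0.105 for the second MMP16 row, −0.07 to 1.23 for MMP2, −0.245 to 1.085 for MMP3, −0.03 to 0.40 for TIMP2, −0.245 to 1.745 for TIMP3 and −0.23 to 0.20 for TIMP4. The MMP3 slope was −0.059 to 0.065 without 1 array, −0.0032 with median centring, −0.049 with array weights, −0.050 per rank with the rank of passage and −0.21 over passages 39 to 67. The second TIMP3 row in A39 versus primary was −0.010 with median centring, and the TIMP4 slope −0.0046 over passages 39 to 67. Over the whole table, leaving out 1 array gave 0 to 6 rows in A39 versus primary (6 without the array labelled primary replicate 2), 0 to 4 in A95 versus A39, 0 to 3 in B96 versus A95 and 0 to 571 in the trend, and fitting only the compared groups gave 2 rows in A95 versus A39. The trend called 159 rows with quantile normalization, 429 with median centring, 271 without dim rows, 174 with 1 row per gene, 132 with another prior, 2171 with array weights, 729 with passage as a random block, 489 with ranks, 0 over passages 39 to 67 and 0 with the closest partner block, against 81 as fitted. The correlation within blocks, estimated over all rows, was −0.16 for passage and 0.67 for closest partners, so these blocks are unlike settings. The cause of the changes in count was not tested. The replicate numbers did not pair the arrays: over 21 pairs of groups the correlation of same-numbered deviations was −0.53 to 0.20, with 4 over 0.1. With the replicate block the trend called 74 rows and each group comparison 0. Signal near the ends of the scale, as for MMP10 at the low end and MMP1 and TIMP1 at the high end, limits what these rows can show.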

Other observations

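Among 15 cytokines, growth factors and receptors that act on MMP transcription, 0 were called in the 3 group comparisons or the trend (limma, Benjamini-Hochberg). Over all 18377 genes the group comparisons called 0 and the trend 54. Of the 15 genes, 3 (20.0%) spanned at least 2 log2, against 5.43% of all genes. The list was chosen with earlier results known, so this count is a description. IL6, an inflammatory cytokine made by fibroblasts, spanned 4.89 log2 and read 10.29 to 11.08 on the array labelled primary replicate 2, both A39 arrays, A50 replicate 1, A95 replicate 2 and B96 replicate 1. It read 6.19 to 7.96 on the other 8 arrays, primary replicate 1 and B96 replicate 2 among them. TGFB2, a transforming growth factor, spanned 3.45 log2 and was lowest on A58 replicate 2 at 6.45 and highest on A39 replicate 2 at 9.90. EREG, an epidermal growth factor receptor ligand chosen after its values were seen, spanned 2.99 log2, with 7.39 on primary replicate 1 and 10.38 on A67 replicate 2.

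MKI67, a proliferation marker, read 8.79 and 8.84 on A39 replicate 2 and A50 replicate 1, the 2 arrays on which MMP1 was lowest, and 9.40 to 10.91 on the other 12. CDKN2A, the p16 locus, read 6.33 on A67 replicate 2 and 6.54 on A95 replicate 1, the 2 arrays on which the first TIMP3 row was lowest, and 7.79 to 9.59 elsewhere. The second TIMP3 row was lowest on A67 replicate 2 (7.58) and A95 replicate 2 (7.70), and CDKN2A read 7.84 on the latter. The part of MKI67 and CDKN2A in the MMP and TIMP values was not tested.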
